A study of Homo sapiens with 6 samples.

Results

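The desmosomal cadherins and plaque proteins examined here are the products of 10 genes, namely the desmocollins DSC2 and DSC3, the desmogleins DSG2 and DSG3, desmoplakin (DSP), the plakophilins PKP1, PKP2 and PKP3, periplakin (PPL) and the membrane protein PERP. They were taken by name, as every probe set that the platform annotation assigns to one of the 10 symbols, which gave 24 of the 54613 probe sets that are not array controls. Probe sets of the antisense transcripts DSG2-AS1 and DSP-AS1 were not counted among them. The RNA came from HSC-3, a line established from a human tongue squamous cell carcinoma, and was read on 6 Affymetrix arrays. The group labelled TAT-2 was HSC-3 overexpressing trypsin-2 (3 arrays), and its control was HSC-3 carrying the control vector (3 arrays). All cells were grown for 48 h in the same serum-containing medium with hydrocortisone and were detached with trypsin before storage. No source used here gives the promoter that drives the introduced gene, or whether the transfected cells were a clone or a pool. The labels number the replicates 1 to 3 in each group without saying what a number stands for or that cultures were grown apart. The p-values therefore cover the spread among these arrays, and that spread may be technical. In RNA from a whole culture, fewer cells of a kind and less RNA per cell cannot be told apart.

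Desmosomes are spot-like junctions that fasten neighbouring epithelial cells to each other and anchor their keratin filaments. Desmocollins and desmogleins bridge the gap between cells, plakoglobin (JUP) and the plakophilins bind their tails inside the cell, and desmoplakin links that plaque to keratin. In epidermis, DSG3 and DSC3 are typical of the lower layers and DSG1 and DSC1 of the upper ones. DSG2 and DSC2 are made in simple epithelium as well.

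PRSS2, which encodes trypsin-2, was set against the labels before any other gene. Its brighter probe set, 205402_x_at, gave signals of 20.4, 13.8 and 14.6 on the arrays labelled TAT-2 (replicates 1, 2 and 3, as in all such lists) and 19.6, 80.8 and 83.2 on the arrays labelled vector. That probe set was thus lower on the TAT-2 arrays of replicates 2 and 3, against the labels. The other, 216470_x_at, gave 19.9, 17.9 and 19.5 on the TAT-2 arrays and 22.6, 38.0 and 54.5 on the vector arrays, lower in all 3 replicate numbers. The suffix of both marks probes that can read related sequences, and no source used here says whether they read the introduced sequence. Groups are therefore named by their labels throughout, and each direction is that of the labels. The 2 arrays of replicate 1 lay away from the rest on principal component 1, which held 45.6% of the variance, and a 28S ribosomal RNA control gave 335 and 299 on their TAT-2 and vector arrays, against 798 to 918 on the others. The descriptions in the labels also name the replicate 1 samples in another style than those of replicates 2 and 3. The cells carried the epithelial signature of their label, with KRT14 at 6162 to 7649 on the TAT-2 arrays and 4554 to 7662 on the vector arrays. Of 7 epithelial markers listed, 4 were analysed and all 4 passed the filter on low signals, with sums of 12907 to 15075 on the TAT-2 arrays and 11071 to 16687 on the vector arrays. EPCAM and CDH1 of these 4 were lower in the blocked fit, EPCAM with 1517, 2167 and 2752 on the TAT-2 arrays and 2430, 3124 and 3039 on the vector arrays (adjusted p = 0.0166 in limma with the block, 0.642 without), and their part in the results was not tested. Of 5 fibroblast, 4 leukocyte, 3 endothelial and 3 melanocyte markers, 2, 1, 1 and 1 passed it. By the brightest probe set of each marker, the summed fibroblast signal was 125 to 134 on the TAT-2 arrays and 109 to 133 on the vector arrays, and the leukocyte sum was 31.2 to 96.0 and 24.4 to 59.4. The endothelial sum was 37.5 to 49.5 and 38.7 to 42.4, the melanocyte sum was 26.3 to 53.9 and 33.5 to 38.0, and by its brightest probe set no marker of these 4 lists was called in either fit. A further probe set of the fibroblast marker COL1A1, 1556499_s_at, was lower in the blocked fit, with 32.3, 49.8 and 56.5 on the TAT-2 arrays and 93.6, 120 and 125 on the vector arrays (log2 fold change -1.06, adjusted p = 0.000881 in limma with the block, 0.117 without), while the brightest had the opposite sign (0.22). Its part in the results was not tested. Among the 4 leukocyte markers, 1 was not analysed and CD14 was the 1 that passed. CD14 gave 14.0, 79.5 and 54.4 on the TAT-2 arrays and 9.15, 38.3 and 22.3 on the vector arrays. It was higher on the TAT-2 array in all 3 replicate numbers but not called (log2 fold change 0.65, adjusted p = 0.0668 in limma with the block, 0.835 without). PTPRC, which defines leukocytes, gave 2.86 to 8.17 on the TAT-2 arrays and 0.980 to 4.95 on the vector arrays, below the filter.

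None of the 10 genes was called different between the groups. Signals were compared as log2(signal + 16), and a log2 fold change is a difference on that scale, which is too small for dim probe sets. A probe set was tested where its mean reached the median of all non-control probe sets, a signal of 15.2, which kept 27307 in all and 20 of the 24 desmosomal ones, with at least 1 for each of the 10 genes. The limma fit called 0 of these 20 at an adjusted p of 0.05 (adjusted p from 0.586 to 0.997), where 0.0293% of all tested probe sets were called, and 0 again with the replicate number as a block (adjusted p from 0.0999 to 0.966), where 5.21% were. At an unadjusted p under 0.05 there were 3 of 20 without the block, against 7.86% of all tested probe sets, and 5 of 20 with it, against 18.5%. The log2 fold changes (TAT-2 minus vector) ran from -0.34 for PPL to 0.39 for a DSC3 probe set, with 10 above 0 and 10 below. Their median was -0.014, beside -0.010 for all tested probe sets, and their median size was 0.10, beside 0.13 for all.

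The intervals, which are not adjusted for the number of probe sets, give the range of changes compatible with these arrays. The size of change that would go uncalled was not computed. With the block, the 95% interval lay inside a 1.5-fold change in either direction for 19 of the 20 probe sets, and for 77.4% of all tested probe sets. The exception was DSC3 244107_at. Without the block 13 of 20 intervals lay inside that range, against 59.2% of all. The probe sets that left the 1.5-fold range without the block but not with it were both of PKP3, PKP1 221854_at, PPL, and DSC3 206032_at and 206033_s_at. With the block PPL stayed only just inside, as its interval reached -0.578 where the bound is 0.585 in size. The precision rests on 3 arrays per group, and the median SE of the 20 estimates was 0.16 without the block and 0.09 with it.

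**Figure D1:**
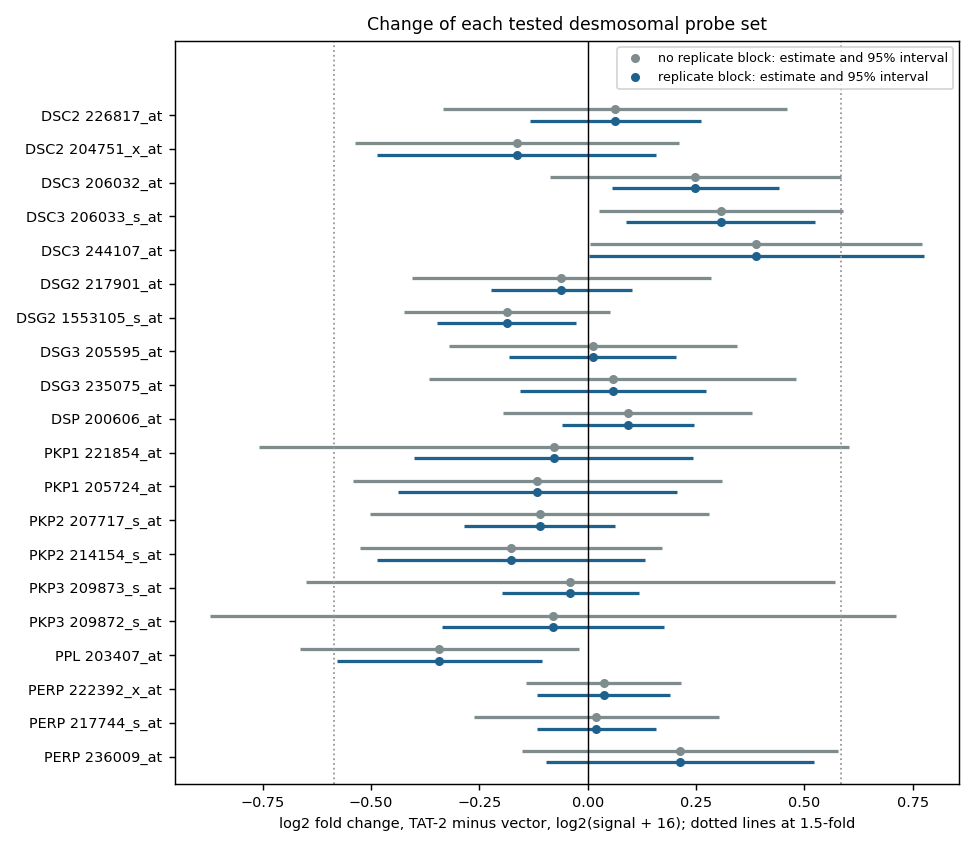
Change of each tested desmosomal probe set, as the log2 fold change (TAT-2 minus vector, log2(signal + 16)) with its 95% interval from limma, without the replicate block (grey, upper) and with it (blue, lower). Dotted lines mark a 1.5-fold change of signal + 16. All 20 estimates lie between -0.34 and 0.39, and with the block 19 of 20 intervals stay inside the dotted lines.

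Among the adhesion molecules, DSC3 was the one whose probe sets lay on the same side throughout. Its brightest probe set, 206032_at, gave 165, 215 and 212 on the TAT-2 arrays and 142, 175 and 172 on the vector arrays. The groups overlapped there only because the TAT-2 array of replicate 1 was low. 206033_s_at gave 142, 167 and 147 on the TAT-2 arrays and 121, 123 and 114 on the vector arrays, so that every TAT-2 value lay above every vector value. 244107_at gave 23.4, 32.5 and 31.2 against 16.1, 22.2 and 16.7, again without overlap. The log2 fold changes were 0.25 ± 0.15, 0.31 ± 0.12 and 0.39 ± 0.17 (SE), and all 3 probe sets were higher on the TAT-2 array in each replicate number. The smallest adjusted p of limma was 0.586 for 206033_s_at, and 0.110 with the block, so the difference was not called, and the 3 probe sets read the same RNA and are not separate evidence.

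DSC2, the more widely made desmocollin, gave no such picture. Its brightest probe set, 226817_at, gave 168, 222 and 207 on the TAT-2 arrays and 147, 210 and 217 on the vector arrays, with overlapping groups and a log2 fold change of 0.06 ± 0.17 (SE). 204751_x_at, whose suffix marks probes that can read related sequences, gave 41.9, 52.0 and 39.6 against 57.1, 56.2 and 42.3 (log2 fold change -0.16 ± 0.16). The remaining DSC2 probe sets, 204750_s_at and 231033_at, lay below the filter, at 4.98 to 13.0 and 5.37 to 12.4 on the TAT-2 arrays and 11.3 to 20.9 and 5.60 to 10.7 on the vector arrays.

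Of the desmogleins, DSG2 was brightest on 217901_at, with 722, 875 and 1008 on the TAT-2 arrays and 762, 1020 and 931 on the vector arrays (log2 fold change -0.06 ± 0.15, SE). Its values overlapped and the sign differed between replicate numbers. The other DSG2 probe set, 1553105_s_at, gave 360, 374 and 361 on the TAT-2 arrays and 412, 453 and 390 on the vector arrays, with no overlap. That log2 fold change was -0.19 ± 0.10, lower in all 3 replicate numbers, with an adjusted p of 0.763 in limma and 0.190 with the block. The 2 DSG2 probe sets therefore differ in how they separate the groups, and neither was called.

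DSG3, the desmoglein that antibodies attack in pemphigus vulgaris, was nearest to no difference. 205595_at gave 152, 197 and 186 on the TAT-2 arrays and 153, 190 and 188 on the vector arrays, a log2 fold change of 0.01 with a 95% interval of -0.18 to 0.20 with the block. 235075_at gave 110, 172 and 153 against 115, 161 and 138 (0.06, interval -0.16 to 0.27 with the block). On both DSG3 probe sets the arrays sort by replicate number first, with replicate 1 lowest in each group.

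All 4 genes lie in a run of 7 neighbouring protein-coding genes on chromosome 18 of GRCh38.p14, in the order DSC3, DSC2, DSC1, DSG1, DSG4, DSG3 and DSG2. The 3 genes in the middle of that run were dim: DSC1 gave 0.902 to 2.05 on the TAT-2 arrays and 0.734 to 3.37 on the vector arrays, DSG1 gave 2.50 to 7.27 and 1.81 to 10.9, and DSG4 gave 1.01 to 1.30 and 1.26 to 5.89. All 3 were below the filter, so that the cadherins read in HSC-3 were those of the run's outer members.

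**Figure D2:**
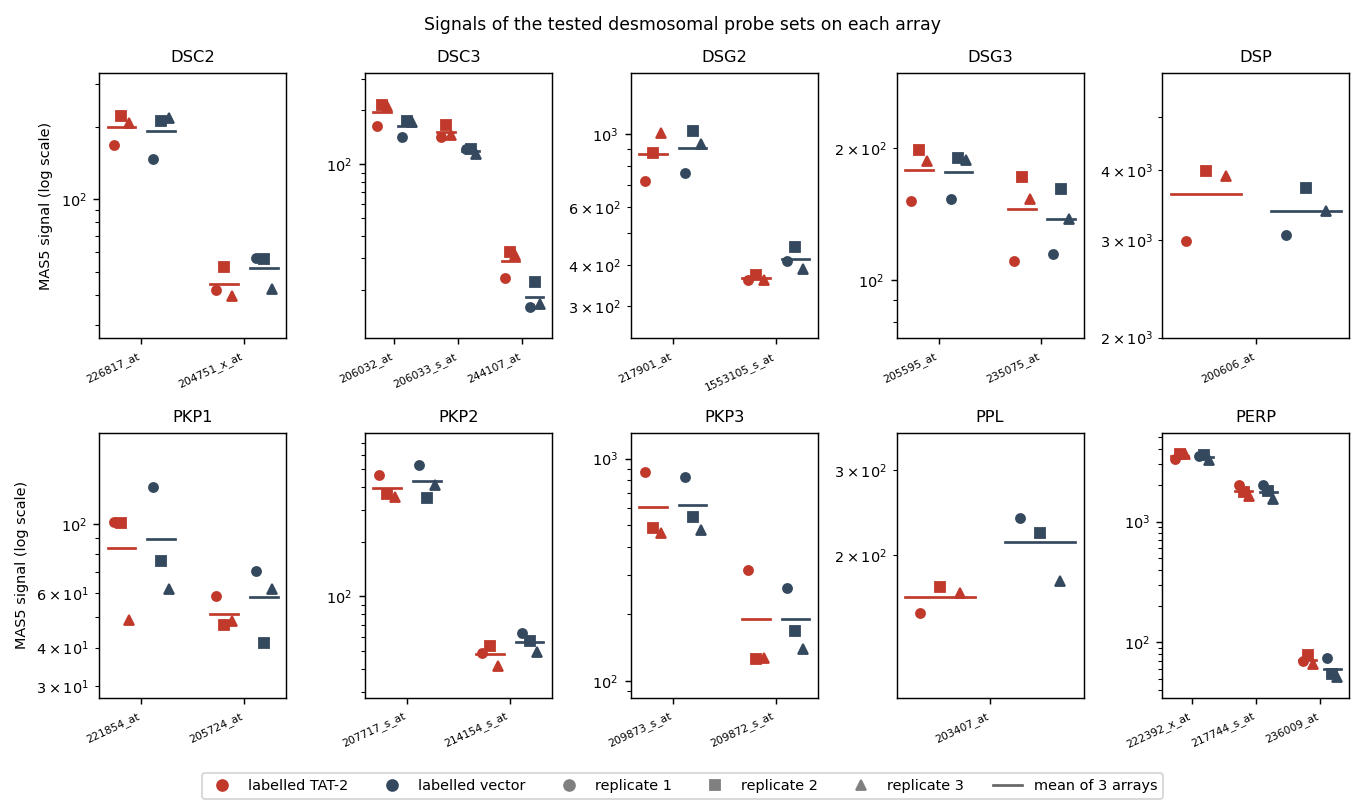
Deposited MAS5 signal of the 20 tested probe sets on each array (log axis), 1 panel per gene, with TAT-2 arrays (red) left of vector arrays (dark blue), the marker shape giving the replicate number and the line the mean of 3 arrays. DSC3 206033_s_at and 244107_at, DSG2 1553105_s_at and PPL are the 4 probe sets whose groups do not overlap, and in PKP3 the replicate 1 arrays of both groups lie highest.

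The stretches before the start sites of 3 of these cadherin genes and of DSP are shown because repressors of the Snail and ZEB families bind the E-box CAGGTG in epithelial genes, and because SNAI2, a Snail member, was measured on the same arrays. Each sequence is the 250 bases before the start in RefSeq (build GRCh38.p14), read in the direction of the gene, and capitals mark CAGGTG on either strand. DSC3 is chr18:31042743-31042992 on the minus strand, DSC2 chr18:31102422-31102671 on the minus strand (the first of 2 listed start sites), DSG2 chr18:31497927-31498176 on the plus strand and DSP chr6:7541421-7541670 on the plus strand.
DSC3 promoter: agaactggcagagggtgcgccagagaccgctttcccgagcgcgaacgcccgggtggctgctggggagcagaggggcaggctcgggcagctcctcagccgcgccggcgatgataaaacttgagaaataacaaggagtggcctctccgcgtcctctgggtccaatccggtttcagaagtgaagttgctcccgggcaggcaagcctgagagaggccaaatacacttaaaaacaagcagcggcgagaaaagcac
DSC2 promoter: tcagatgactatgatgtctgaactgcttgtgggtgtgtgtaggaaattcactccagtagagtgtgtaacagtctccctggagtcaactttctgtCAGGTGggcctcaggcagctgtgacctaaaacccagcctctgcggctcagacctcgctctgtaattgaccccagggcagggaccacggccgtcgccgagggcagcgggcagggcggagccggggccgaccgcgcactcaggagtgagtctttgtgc
DSG2 promoter: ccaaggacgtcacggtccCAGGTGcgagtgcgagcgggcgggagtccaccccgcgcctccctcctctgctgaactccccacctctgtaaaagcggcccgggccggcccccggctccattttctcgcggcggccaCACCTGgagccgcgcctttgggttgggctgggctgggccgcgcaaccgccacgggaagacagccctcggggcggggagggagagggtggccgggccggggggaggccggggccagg
DSP promoter: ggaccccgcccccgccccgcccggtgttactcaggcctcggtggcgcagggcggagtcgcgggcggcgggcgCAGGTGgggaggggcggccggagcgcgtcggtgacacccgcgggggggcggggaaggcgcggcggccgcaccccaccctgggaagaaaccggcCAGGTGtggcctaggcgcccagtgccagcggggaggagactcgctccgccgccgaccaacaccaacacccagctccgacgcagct
Of the 10 genes 7 were in the promoter table, with 8 start sites, and the E-box was found before 3 of these, once for DSC2 and 2 times each for DSG2 and DSP. The same motif stood before 17.5% of all 35116 start sites in the source. The AP-1 motif TGANTCA was found before PERP only (6.57% of all), and TATAAA before none (10.7% of all); no motifs overlapped in the sequences shown. SNAI2 itself gave 1483, 1512 and 1502 on the TAT-2 arrays and 1485, 1538 and 1444 on the vector arrays, a log2 fold change of 0.01 ± 0.08 (SE), while SNAI1, ZEB1 and ZEB2 lay below the filter. SNAI2 was singled out after its values were seen.

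Inside the cell, DSP, the linker between the plaque and keratin, was read by 1 probe set, 200606_at. It gave 2991, 3992 and 3916 on the TAT-2 arrays and 3064, 3719 and 3381 on the vector arrays. The groups overlapped, with a log2 fold change of 0.09 ± 0.13 (SE) and a 95% interval of -0.06 to 0.25 with the block. PPL, a relative of desmoplakin that binds keratin and the cornified envelope, had the most negative log2 fold change of the 20. Its probe set, 203407_at, gave 152, 172 and 167 on the TAT-2 arrays and 239, 223 and 177 on the vector arrays, and averaged 163 ± 10.3 and 213 ± 32.4 (SD, n = 3 each). The groups did not overlap, but only by the margin between 172 and 177. The log2 fold change of -0.34 ± 0.14 (SE) had an adjusted p of 0.601 in limma and 0.0999 with the block. By replicate number the PPL differences were -0.60, -0.35 and -0.08, and without replicate 3 of both groups the blocked limma fit called PPL lower (log2 fold change -0.48, adjusted p = 0.0204), the only call of a desmosomal probe set among the 24 alternatives run.

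The plakophilins PKP1, PKP2 and PKP3 are armadillo proteins that widen the plaque and cluster the cadherins. Their log2 fold changes were below 0 on all 6 tested probe sets, but small, from -0.18 to -0.04. These 6 read only 3 genes, and probe sets of the same gene are not separate evidence. PKP4, from the list of other desmosome genes, went the other way. Its tested probe sets 201928_at, 201929_s_at and 201927_s_at gave log2 fold changes of 0.07, 0.11 and 0.15, none called. The share of all tested probe sets below 0 was not computed, and their median was also below 0 (-0.010). Of the 6 probe sets of PKP1, PKP2 and PKP3, only PKP2 214154_s_at had the same sign in all 3 replicate numbers. PKP1, typical of stratified epithelium, gave 101, 100 and 49.1 on the TAT-2 arrays and 131, 75.8 and 61.5 on the vector arrays on 221854_at. Its other probe set, 205724_at, gave 58.4, 47.2 and 48.6 against 70.6, 41.4 and 61.9. On both, the TAT-2 array was higher in replicate 2 and lower in replicates 1 and 3. PKP2, which is also the plakophilin of heart muscle, gave 464, 367 and 351 against 531, 349 and 409 on 207717_s_at (log2 fold change -0.11 ± 0.17, SE), and 48.7, 53.6 and 41.6 against 63.0, 56.8 and 49.2 on 214154_s_at (-0.18 ± 0.15). PKP3, the plakophilin that binds the widest set of desmosomal cadherins, gave 871, 489 and 464 on the TAT-2 arrays and 824, 548 and 477 on the vector arrays on 209873_s_at. On 209872_s_at it gave 316, 126 and 126 against 261, 168 and 139. Here the replicate 1 arrays were highest in each group, and the SE of the PKP3 estimates was 0.27 and 0.35 without the block and 0.07 and 0.12 with it. No plakophilin was called, with adjusted p of 0.902 or more in limma and 0.528 or more with the block.

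PERP, a tetraspan membrane protein needed for stable desmosomes in mouse epidermis, was bright on 222392_x_at, with 3322, 3649 and 3637 on the TAT-2 arrays and 3523, 3580 and 3234 on the vector arrays. Its second bright probe set, 217744_s_at, gave 2022, 1753 and 1619 against 2008, 1783 and 1536. Their log2 fold changes were 0.04 ± 0.08 and 0.02 ± 0.12 (SE), and with the block both 95% intervals lay between -0.12 and 0.19. A dimmer probe set, 236009_at, gave 70.1, 79.0 and 65.8 on the TAT-2 arrays and 73.5, 54.6 and 52.0 on the vector arrays (0.21 ± 0.16, adjusted p = 0.482 with the block). The PERP probe sets 240797_at and 1556990_at lay below the filter, at 14.5 or less on every array.

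By replicate number, 7 of the 20 tested probe sets differed in the same direction in all 3 numbers, 3 higher and 4 lower, where 39.1% of all tested probe sets did so in either direction. The 3 were those of DSC3, and the 4 were PPL, DSG2 1553105_s_at, DSC2 204751_x_at and PKP2 214154_s_at. The groups did not overlap for 4 of 20, against 14.1% of all tested probe sets.

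**Figure D3:**
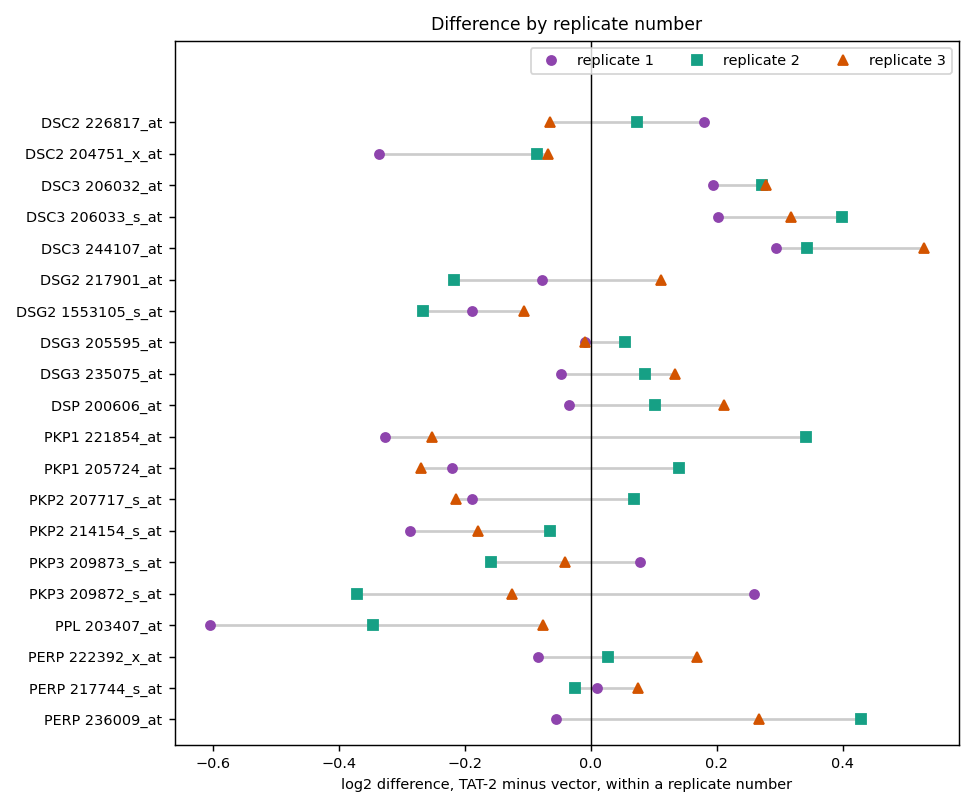
Log2 difference between the TAT-2 and the vector array of the same replicate number (circle 1, square 2, triangle 3) for each tested desmosomal probe set. All 3 DSC3 probe sets lie right of 0 in every replicate, PPL lies left of 0 at -0.60, -0.35 and -0.08, and 13 of the 20 have signs on both sides.

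The arrays of replicate 1 were set apart for several of these genes. The offset of the replicate 1 array from the mean of replicates 2 and 3 was larger in size than the group difference, in both groups, for 13 of the 20 probe sets. That share was not computed over all tested probe sets. An offset of 1 array from a mean of 2 also varies more than a difference between 2 means of 3, so the count ranks neither above the other. The direction of the offset differed between plakophilin and cadherin members, which are only 3 and 4 genes. All 6 probe sets of PKP1, PKP2 and PKP3 were higher in replicate 1 in both groups. Their log2 offsets were 0.03 to 1.22 among TAT-2 arrays and 0.20 to 0.80 among vector arrays. By contrast, 7 of 9 cadherin probe sets were lower in replicate 1 in both groups and none was higher in both. PKP4, not a member, was lower in both groups on 201928_at, higher in both on 201929_s_at and mixed on 201927_s_at. Of the 5 probe sets of DSP, PPL and PERP, 1 was lower and 1 higher in both groups. DSP was lower in replicate 1, with offsets of -0.40 among TAT-2 arrays and -0.21 among vector arrays. PERP 217744_s_at was higher, with 0.26 and 0.28. Over all tested probe sets 38.2% were higher and 34.8% lower in replicate 1 in both groups, and the median size of the mean offset was 0.29 for the desmosomal probe sets and 0.21 for all. These offsets are given as a description, with no test. Replicates 2 and 3 could differ as well: PKP1 221854_at gave 100 and 49.1 on these TAT-2 arrays and 75.8 and 61.5 on the vector arrays.

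**Figure D4:**
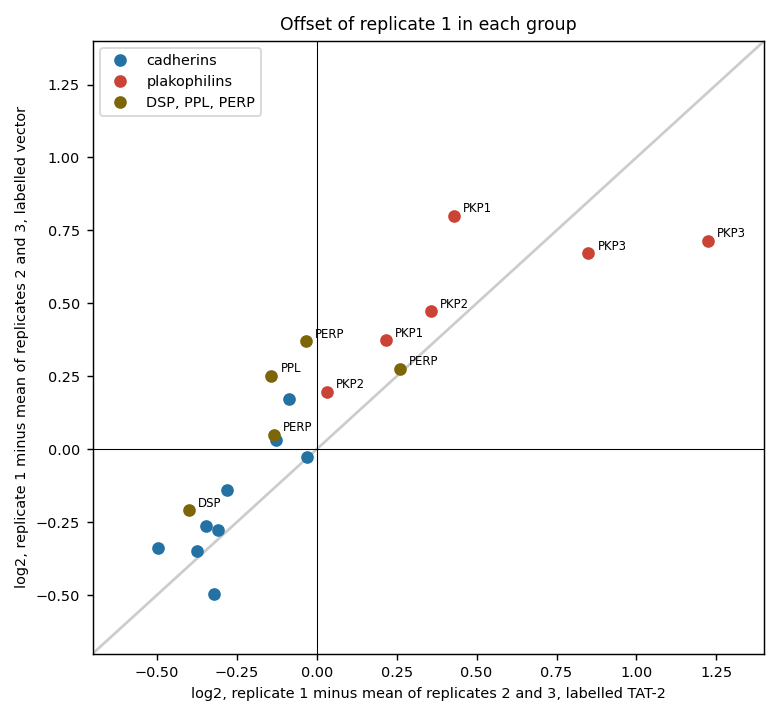
Offset of the replicate 1 array from the mean of replicates 2 and 3 on the log2 scale, among TAT-2 arrays (x) and among vector arrays (y), for each tested desmosomal probe set, coloured by role, with the line of equal offset. Plakophilins (red) lie in the upper right, up to 1.22 for PKP3, and 7 of 9 cadherin probe sets (blue) lie in the lower left.

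Among other desmosome genes, KAZN, which encodes kazrin, a protein that binds periplakin, was lower on the TAT-2 arrays in the blocked fit. Its brightest probe set, 213478_at, gave 25.3, 33.0 and 24.8 on the TAT-2 arrays and 57.3, 68.8 and 70.9 on the vector arrays, and averaged 27.7 ± 4.63 and 65.7 ± 7.34 (SD, n = 3 each). No value overlapped. The log2 fold change was -0.90 ± 0.16 (SE), and limma gave an adjusted p of 0.104 without the block and 0.00642 with it. A further KAZN probe set, 229144_at, gave 16.3, 22.6 and 14.7 against 38.8, 34.7 and 51.4 (log2 fold change -0.76, adjusted p = 0.0405 with the block), and 2 more were below the filter. With the block, the KAZN call was lost without the filter (adjusted p = 0.0546). Without the intensity trend of the variance, the blocked fit called no probe set at all, and the adjusted p of KAZN was 0.0941.

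Of the 9 other desmosome genes listed, 5 were tested, and by the brightest probe set 1 fell with the block, KAZN, and none rose, with a median log2 fold change of -0.03. JUP, the plaque protein that binds cadherin tails, gave 936, 702 and 686 on the TAT-2 arrays and 831, 677 and 597 on the vector arrays. It was higher on the TAT-2 array in all 3 replicate numbers and was not called (log2 fold change 0.14 ± 0.16, SE, adjusted p = 0.299 with the block). PNN, pinin, first described at desmosomes and also a splicing protein of the nucleus, was not called on its brightest probe set (-0.14), while 1 of its 5 tested probe sets, 212037_at, was lower with the block (-0.32, adjusted p = 0.0198) and another, 210183_x_at, had the opposite sign (0.19).

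Of 14 keratins listed 8 were tested, with 1 higher and 1 lower in the blocked fit and a median log2 fold change of 0.26. KRT19 rose, with 1237, 2054 and 1700 on the TAT-2 arrays and 867, 1364 and 1114 on the vector arrays (0.56, adjusted p = 0.000668 with the block), although its groups overlapped. Without the intensity trend its adjusted p with the block was 0.131. KRT8, a simple epithelial keratin, fell (-0.32, adjusted p = 0.0385 with the block), a call that was lost without replicate 1 of both groups (adjusted p = 0.154), without replicate 2 of both (0.304), without the filter (0.174) and without the trend (0.282). Of 9 listed genes of adherens junctions (classical cadherins, catenins, and their partners VCL, AFDN and NECTIN1) 8 were tested, of which CDH1 and CDH2 fell with the block and the other 6, CTNNB1 and CTNNA1 among them, were not called. CDH1, E-cadherin, gave 652, 977 and 932 on the TAT-2 arrays and 1028, 1215 and 1193 on the vector arrays (-0.44, adjusted p = 0.00826 with the block), while its second probe set was not called. CDH2, N-cadherin, gave 8.36, 2.04 and 5.71 against 21.0, 73.0 and 89.4, below the filter level on every TAT-2 array. It passed the filter through the vector arrays alone, so it had to differ, its count as a call is no support, and its fitted size depends on the pseudocount. In blocked limma the adjusted p of CDH1 was 0.0657 without the filter and 0.202 without the trend, and that of CDH2 was 0.0896 and 0.168, so both calls were lost in each.

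The 9 listed regulators of desmosomal genes gave 3 tested genes and no call in either fit. KLF5, a factor of epithelial growth, was at -0.14 and GRHL2, a factor of epithelial identity, at 0.04 (adjusted p = 0.379 and 0.861 with the block). Of 14 listed enzymes that act on desmosomal proteins or cell surfaces (proteases, kinases and the arginine methyltransferase PRMT1) 13 were tested and none was called, with 4 above 0, 9 below and a median of -0.11. ADAM9, a membrane sheddase, was at -0.15 and PRKCA, the kinase that loosens desmosomes, at -0.29 (adjusted p = 0.247 and 0.317 with the block). Across the 5 lists limma without the block called 0 of 37 tested genes, where 0.0576% of all genes were called by their brightest probe set. With the block it called 5 (1 higher, 4 lower, CDH2 among the lower), where 6.96% of all genes were.

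**Figure D5:**
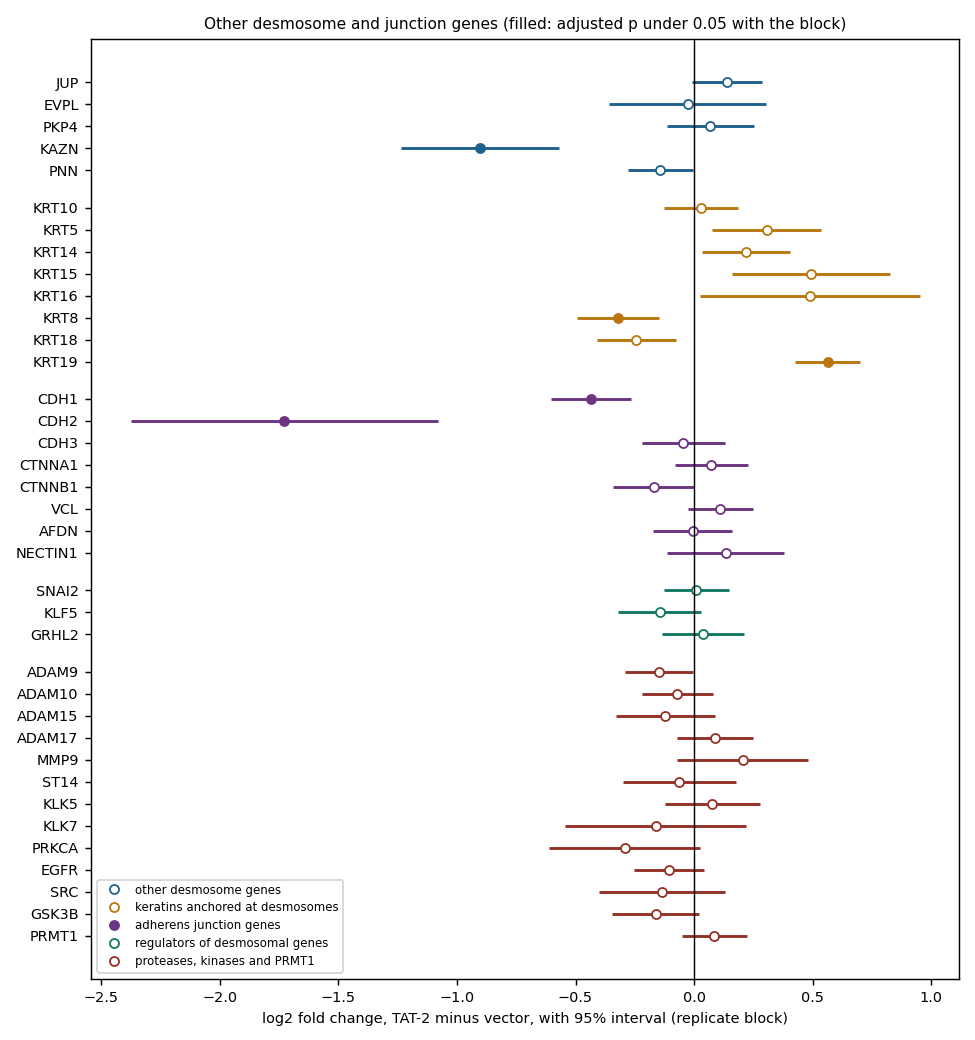
Log2 fold change (TAT-2 minus vector) with its 95% interval from the blocked limma fit, for the tested genes of 5 lists of desmosome and junction genes, each by its brightest probe set; filled points had an adjusted p under 0.05. The 5 filled points are KAZN at -0.90, KRT8 at -0.32, KRT19 at 0.56, CDH1 at -0.44 and, farthest left, CDH2, which passed the filter through the vector arrays alone.

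Over the 6 arrays, the genes whose log2 signals followed those of DSP most closely were ANKRA2, RAB38 and GTF2E2, with Pearson's r of 0.997, 0.996 and 0.994. The points share the offset of replicate 1, which was -0.40 and -0.21 for DSP and -0.44 and -0.23 for ANKRA2 in the TAT-2 and vector groups. These 3 are the closest of 12151 genes over only 6 arrays, and they are given as a description.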

How the data were processed

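The authors deposited 1 MAS5 intensity per probe set and array, on a linear scale, per the submitters' processing notes (no version given). The mean between percentiles 2 and 98 was 99.99 on each array, so this scaling was kept. Detection calls were not used here. The platform annotation gave 41091 of 54613 non-control probe sets 1 symbol, 1801 several and 11721 none, and symbols were updated by gene identifier through a RefSeq table of GRCh38.p14.

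Values were compared as log2(signal + 16) with limma 3.58.1 in R 4.3.3 (lmFit, eBayes with an intensity trend, Benjamini-Hochberg over 27307 probe sets at or above the median, threshold 0.05), with group as the only term. The fits were run on simulated arrays with independent noise and no replicate offset. That check therefore does not cover the replicate 1 offset of these arrays. Same-numbered arrays had deviations from their group means that correlated at r = 0.64, 0.39 and 0.25, each over 0.1, so a blocked fit on that number is printed too. Replicates 2 and 3 also correlated across numbers (0.32 for TAT-2 2 with vector 3, 0.20 for TAT-2 3 with vector 2), so mainly replicate 1 was set apart. Other lists were read by each gene's brightest probe set; every listed gene called, up to 4 a list, or else the 2 of smallest p, is named, with JUP and the 3 genes most like DSP. Some listed genes were not analysed here. Members and lists were chosen with earlier results of these data known.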

Additional observations from a re-analysis of the deposited data

How the results depend on the processing

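Over 24 alternatives, 466 values of desmosomal probe sets were recomputed with limma. Of these 433 kept their sign and stayed uncalled, 32 turned sign while uncalled, and 1 was called. The count of called desmosomal probe sets was 0 in every alternative except without replicate 3 of both groups, where it was 1 (PPL). The median log2 fold change lay between -0.052 and 0.035 throughout. It moved by less than 0.18, the typical spread between replicates of a single probe set. A median over many probe sets could hardly move that far, so this bound does not show stability. The sign of PERP 217744_s_at turned with quantile normalization, with and without the block, to -0.00072. The other turns came from leaving out arrays, with ranges of -0.10 to 0.17 for DSC2 226817_at, -0.18 to 0.064 for DSG2 217901_at, -0.081 to 0.11 for DSG3 205595_at, -0.064 to 0.22 for DSG3 235075_at, -0.039 to 0.12 for GRHL2 219388_at, -0.0020 to 0.26 for JUP 201015_s_at, -0.079 to 0.11 for PERP 217744_s_at, -0.0076 to 0.081 for PERP 222392_x_at, -0.29 to 0.0084 for PKP1 205724_at, -0.27 to 0.20 for PKP1 221854_at, -0.24 to 0.047 for PKP2 207717_s_at, -0.49 to 0.16 for PKP3 209872_s_at and -0.32 to 0.18 for PKP3 209873_s_at. In the blocked fit without a replicate number of both groups, further values turned sign: without number 1 they were 0.045 for PKP1 221854_at, without number 2 they were 0.017 for DSG2 217901_at, -0.0095 for DSG3 205595_at, 0.019 for PKP3 209873_s_at, 0.067 for PKP3 209872_s_at, without number 3 they were 0.0074 for PKP1 221854_at, -0.029 for PERP 222392_x_at, -0.0073 for PERP 217744_s_at, -0.014 for GRHL2 219388_at. Fewer arrays entered each of these fits, and the cause was not tested. The turns of GRHL2 and JUP, which are not among the 10 genes, lie outside the 32. The number of called genes on the 5 other lists, 0 without the replicate block, was 5 with it, 5 with the block and a pseudocount of 1, 7 with the block and quantile normalization, 1 with the block and no filter, and 5 with replicate 1 against replicates 2 and 3 as a factor. With 1 array left out it was 0 to 1, and with the replicate block and without number 1, 2 or 3 of both groups it was 6, 4 and 8. The block without the intensity trend called 0 of all tested probe sets, against 1424 with it, and 0 of the desmosomal ones, of which 4 had an unadjusted p under 0.05. The block called no desmosomal probe set. Over all tested probe sets, the count of 8 without the block became 13 with quantile normalization, 24 with array medians centred, 5 without the trend and 40 with 1 probe set per gene. It was 29 without TAT-2 replicate 1, 7 without vector replicate 1, and 0 without TAT-2 replicate 2 or 3, or vector replicate 2 or 3. Dim probe sets, near the filter, limit what can be said of 244107_at, KAZN and CDH2.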
